A study of Mus musculus with 2 samples.

Results

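The genes described here are 10 components of the Wnt pathway in and around the ciliary body of the mouse eye: Sfrp1, Sfrp2, Sfrp5, Frzb, Wif1, Dkk2, Dkk3, Wls, Lef1 and Axin2. They were chosen by symbol, and each matched 1 of the 33456 genes counted. The series is an exploratory single-cell study with 2 droplet libraries of 1 group: untreated wild-type mice of the strain C57BL/6 at postnatal day 35, from which the ciliary epithelium was dissected. Library 1 pooled 3 sets of eyes, and the labels give 3 sets in one field and 4 in another for library 2, so each library is 1 pool and n = 2 libraries throughout. After filtering, library 1 held 3862 cells with a median of 4128 unique molecular identifiers (UMIs, 1 per captured transcript) and library 2 held 5466 cells with a median of 2968. The libraries shared 11 barcodes, 8 of them in retained cells.

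The dissection carried more than ciliary epithelium. Levels are given as CPM: the UMIs of a gene, summed over the cells of a class in 1 library, scaled to 1000000 UMIs of that class. Marker genes gave 18 cell classes that reached 20 cells in both libraries, and a class name below is short for cells like that type by these markers. The non-pigmented ciliary epithelium (141 cells in library 1 and 145 in library 2) carried Best2 at 208 and 220 CPM and Col9a1 at 1421 and 1250. Its cluster also passed for 7 pigmented epithelium, 5 melanocyte and 6 Muller glia markers, with 0 of each among its leading genes. The part of doublets or free RNA in this was not tested. The pigmented epithelium (137 and 216 cells) carried the pigment gene Tyr at 348 and 401 CPM, while the retinal pigment epithelium gene Rpe65 stood at 8.61 and 4.30 in it. Its cluster passed for 11 pigmented epithelium and 6 iris dilator markers, from lists that share genes, with 3 of each among its leading genes. Iris cells were thus not separated from ciliary cells, and the pigmented layer below means this whole class. Fibroblasts made up 33.5% of the cells of library 1 and 11.6% of library 2, and rods, cones, bipolar cells, amacrine cells and Muller glia came from the neural retina. The fibroblast class joined clusters named by fibroblast or by trabecular meshwork markers.

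Wnt proteins are secreted, lipid-modified signals. At the receiving cell they bind Frizzled receptors with the co-receptors Lrp5 or Lrp6, which stabilises β-catenin, and β-catenin then acts on target genes with transcription factors of the TCF/LEF family. The pathway is damped outside the cell by proteins that bind the ligand (the Sfrp family, Frzb and Wif1) or the co-receptor (Dkk proteins), and inside it by the scaffold Axin2. In the developing eye, Wnt signalling at the rim of the optic cup is known for its part in forming the ciliary body and iris.

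Lef1 is a factor of the TCF/LEF family and Axin2 is a widely used target of that family, so a start site of each is shown. The core motif of these factors (CTTTG and then 2 bases, each of them A or T) was searched on both strands. The windows run from 250 bases before a start site to 50 after it (RefSeq, GRCm38.p6). Axin2, chr11:108920099-108920398, plus strand, held no match. The most downstream Lef1 window, chr3:131156044-131156343, plus strand, held CTTTGTA on the minus strand, and capitals mark it. The other Lef1 windows, at or nearer to the start of the gene, held no match and are not shown.
Axin2: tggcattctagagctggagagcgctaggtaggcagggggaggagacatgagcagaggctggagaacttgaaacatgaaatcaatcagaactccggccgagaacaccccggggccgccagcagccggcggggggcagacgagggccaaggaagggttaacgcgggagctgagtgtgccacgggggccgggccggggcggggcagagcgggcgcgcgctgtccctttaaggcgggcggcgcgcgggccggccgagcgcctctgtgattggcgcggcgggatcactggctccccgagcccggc
Lef1: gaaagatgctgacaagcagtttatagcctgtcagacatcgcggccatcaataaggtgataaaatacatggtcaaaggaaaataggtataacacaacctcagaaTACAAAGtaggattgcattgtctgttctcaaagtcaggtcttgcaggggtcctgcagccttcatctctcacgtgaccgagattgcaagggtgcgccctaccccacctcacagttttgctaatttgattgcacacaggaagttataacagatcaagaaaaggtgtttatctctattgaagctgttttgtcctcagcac
The motif was found in 1 of the 11 windows of the 8 members that had any, and in 16.9% of all 32851 windows of this length. Sfrp1 and Dkk3 had no window. Counts are per gene and do not tell which start site was used.

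Across the 18 classes the members fell into a small number of arrangements. Each class was compared with the mean of the other classes in 1 fit over all tested genes (edgeR quasi-likelihood test, Benjamini-Hochberg adjusted, called where the adjusted p was under 0.05 and the log2 fold change was 1 or more in size). Of the 180 pairs of a member and a class, 37 were called higher and 17 lower. The non-pigmented epithelium was higher in 6 members (Sfrp1, Wif1, Dkk3, Wls, Lef1 and Axin2), beside 16.6% of all tested genes. The pigmented epithelium was higher in 5 (Sfrp1, Wif1, Dkk3, Wls and Axin2), beside 16.8% of genes, and the retinal pigment epithelium in 5 (Sfrp1, Sfrp5, Dkk3, Wls and Axin2), beside 18.1%. Fibroblasts were higher in 5 (Sfrp1, Sfrp2, Wif1, Dkk2 and Wls), beside 21% of genes. The median over all tested genes shifted between -0.85 (neutrophils) and 0.34 (Muller glia) on the log2 scale in these contrasts.

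The remaining classes had fewer members above the other classes. Melanocytes were higher in 4 (Frzb, Dkk3, Wls and Axin2), beside 15.9% of genes. Endothelium was higher in 3 (Dkk2, Wls and Lef1), beside 15.5%, and Schwann cells in 3 (Sfrp1, Sfrp5 and Lef1), beside 4.89%. Muller glia were higher in 2 (Frzb and Dkk3), beside 19.5%, mural cells in 2 (Dkk2 and Wls), beside 10.1%, and the T or NK class in 2 (Wif1 and Lef1), beside 9.46%. In fits called without a library, here and below, only the compared classes lost that library's sum. In a class contrast this was the named class alone, and all other classes kept both libraries. Without library 1 the Sfrp1 value in fibroblasts was under the fold limit (log2 fold change 0.99), and without library 2 the Wls call in endothelium was lost (0.85, adjusted p = 0.159, edgeR, Benjamini-Hochberg), as it was at cluster resolution 2 (0.996, under the fold limit). Without library 1 or library 2, 10 and 12 of the pairs were called lower. The lower calls lay in immune and retinal classes: 3 in macrophages beside 3.05% of genes, 2 in dendritic cells beside 3.22%, 3 in rods beside 6.89%, 3 in cones beside 7.49%, 3 in bipolar cells beside 6.86%, 2 in amacrine cells beside 7.14%, and Wls in Muller glia beside 2.4%. Of the members, 4 (Sfrp1, Dkk3, Wls and Axin2) had a UMI in every class, and the lower calls are theirs. Over all genes, the 3500 with 0 UMIs in some class gave 141 lower calls and the other 3294 gave 4197. The part of a class at 0 in these lower calls was not tested, and no comparison of genes with like counts was made. In B cells and neutrophils the fit called 0 members either way, beside 4.34% of genes higher and 2.09% lower in B cells and 6.54% higher and 3.59% lower in neutrophils, and 2 and 1 members had an unadjusted p under 0.05.

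**Figure D1:**
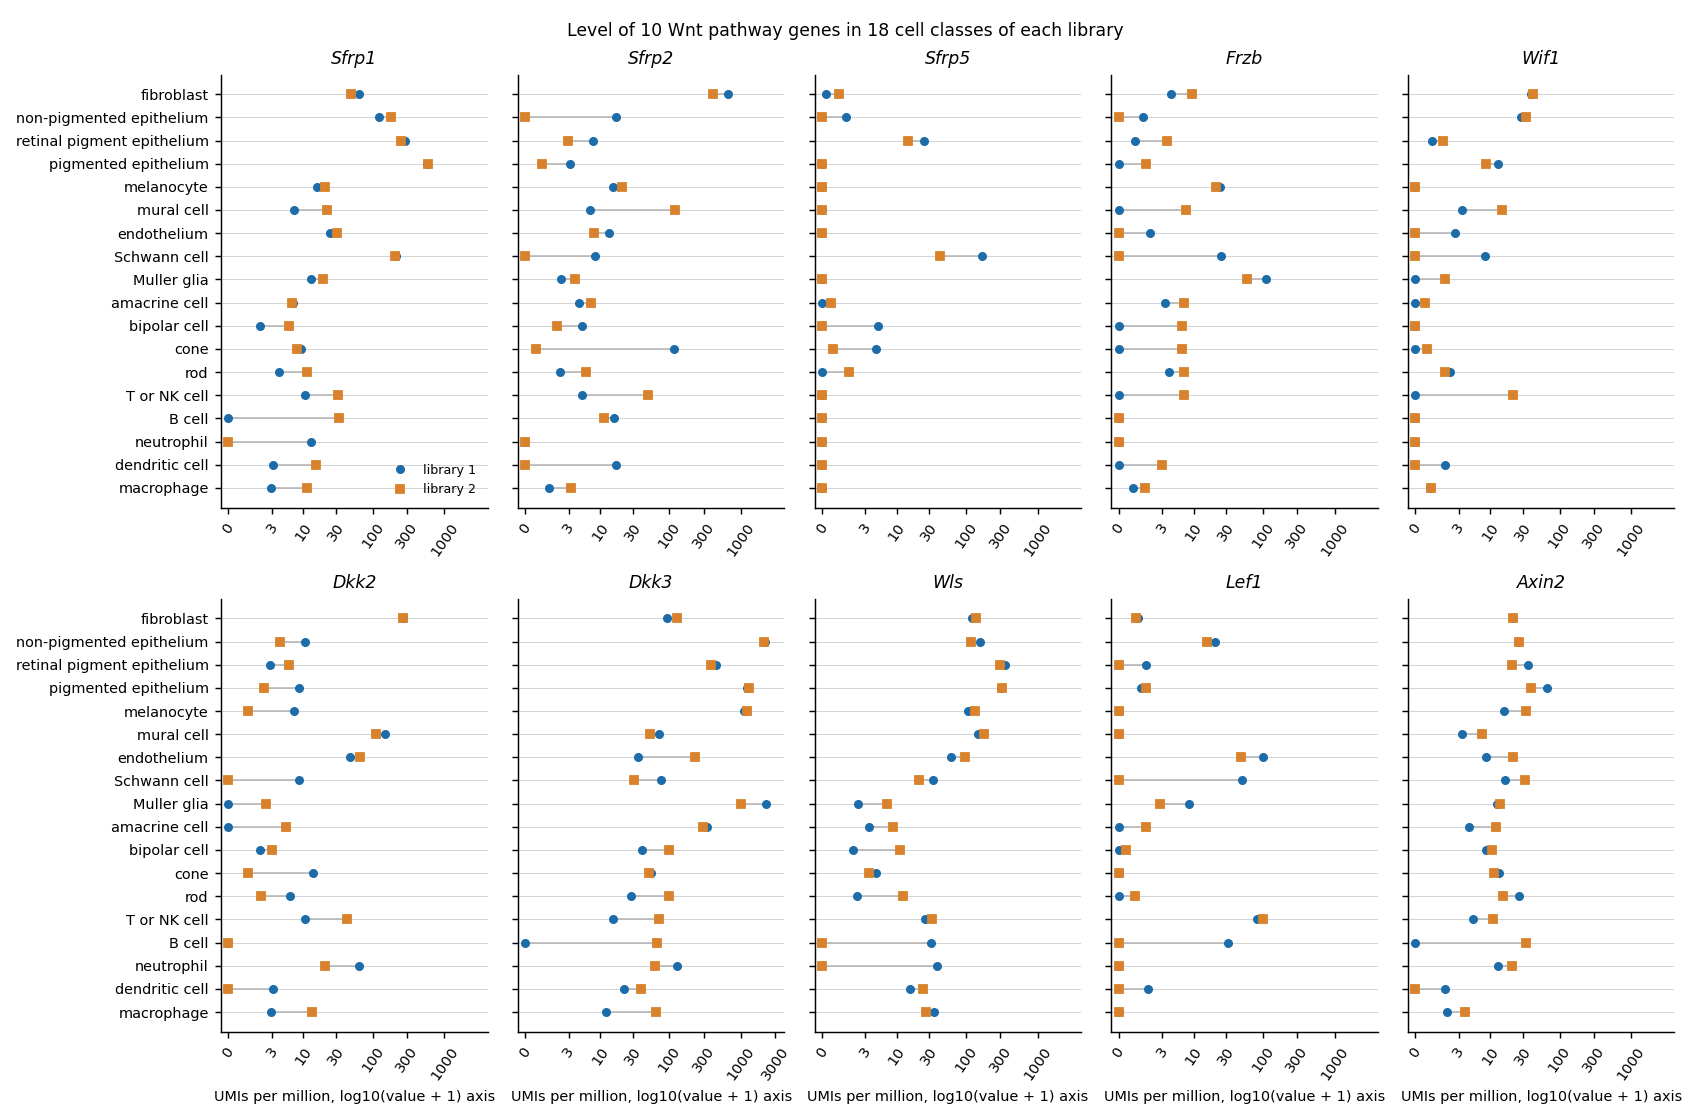
Level of each member (CPM on a log10(value + 1) axis) in 18 cell classes, with 1 point per library joined by a grey line; where 1 point is visible the libraries coincide. Sfrp2 and Dkk2 stand to the right in fibroblasts, Dkk3 in both ciliary layers, melanocytes and Muller glia, and Lef1 in endothelium and the T or NK class.

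The secreted frizzled-related proteins carry a domain like the Wnt-binding part of Frizzled. Sfrp1 (chr8:23411502-23449632, plus strand, GRCm38) is known for raising eye pressure in mice when overexpressed in the outflow tissue. Its level was 574 CPM in the pigmented epithelium of library 1 and 592 in that of library 2, from 533 and 825 UMIs. It was 285 and 248 in the retinal pigment epithelium, 210 and 202 in Schwann cells (25 and 19 UMIs), 121 and 181 in the non-pigmented epithelium, and 63.5 and 50.1 in fibroblasts. The non-pigmented values came from 105 and 169 UMIs, and 27 of those of library 2 lay in 1 cell. None of these 5 classes overlapped its neighbour in the order, and below them every neighbouring pair of classes overlapped. Relative to the mean of the other classes, the log2 fold change was 4.82 ± 0.18 (SE) in the pigmented epithelium (adjusted p = 1.45e-19) and 3.93 ± 0.20 in the retinal pigment epithelium (adjusted p = 2.08e-17), by edgeR with Benjamini-Hochberg adjustment.

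Sfrp1 was detected in 76.6% of pigmented epithelial cells of library 1 (95% exact binomial interval 68.7 to 83.4) and 72.2% of library 2 (65.7 to 78.1). Macrophages, which stand here for free RNA, had a Sfrp1 UMI in 1.2% and 4.31% of cells. Their median depth was 4949 and 6228 UMIs per cell, against 4921 and 4023 in the pigmented epithelium. With every cell thinned to 1000 UMIs, the shares were 45.2% and 38.7% in the pigmented epithelium, against 0% and 0.448% in macrophages. Intervals on single libraries cover counting error only.

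Sfrp2 (chr3:83766321-83774316, plus strand) was a fibroblast transcript. Fibroblasts held 649 and 407 CPM, which was 97.4% and 92.2% of the Sfrp2 UMIs of each library, and it was called higher there (adjusted p = 4.57e-15, edgeR, Benjamini-Hochberg). It was found in 34.2% (31.6 to 36.9) and 27.7% (24.3 to 31.4) of fibroblasts, against 0.601% and 1.72% of macrophages. Thinned to 1000 UMIs, the fibroblast shares were 19.1% and 14.2%. Values elsewhere rested on very few cells: mural cells of library 2 had 120 CPM from 16 UMIs, 14 of them in 1 cell, and cones of library 1 had 114 from 25 UMIs in 2 cells. The pigmented epithelium, with 3 and 1 UMIs (3.23 and 0.717 CPM), was at the macrophage level of 1.17 and 3.32. The antisense gene Gm26771 overlaps Sfrp2, and the strand setting of the counting is not given in the sources used here.

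Sfrp5 (chr19:42197971-42202252, minus strand) was rare, with 62 and 35 UMIs over all classes. The retinal pigment epithelium held 36 and 20 of them, in 22 and 14 cells, at 25.4 and 14.7 CPM (adjusted p = 7.91e-08). Schwann cells held 20 UMIs in 10 cells of library 1 and 4 UMIs in 1 cell of library 2, at 168 and 42.6 CPM (adjusted p = 2.34e-07, edgeR, Benjamini-Hochberg). Neither call held in DESeq2 (adjusted p = 0.522 and 0.701). The pigmented epithelium had 0 UMIs in both libraries, and 3 counts over both would be 1.29 CPM.

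Frzb, also known as Sfrp3 (chr2:80411970-80447625, minus strand), was highest in Muller glia, the radial glia of the retina, at 111 and 60.0 CPM (52 and 154 UMIs; adjusted p = 2.10e-10). Melanocytes followed at 24.3 and 21.5 (64 and 24 UMIs; adjusted p = 1.46e-06, edgeR, Benjamini-Hochberg). Muller glia held 31.9% of all Frzb UMIs in library 1 and 46.4% in library 2, with a UMI in 28.1% (20.3 to 37.0) and 27.9% (23.2 to 33.0) of cells, against 0.3% and 0.862% of macrophages. Thinned to 1000 UMIs, the Muller shares were 14.6% and 8.49%. Both ciliary layers were near 0: the non-pigmented epithelium had 1 and 0 UMIs and the pigmented epithelium 0 and 2.

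Wif1 (chr10:121033960-121100650, plus strand), which binds Wnt ligands through a domain of its own, was highest in fibroblasts at 39.2 and 41.7 CPM (312 and 174 UMIs; adjusted p = 7.66e-14). The non-pigmented epithelium followed at 28.9 and 33.1 (25 and 31 UMIs; adjusted p = 1.21e-09, edgeR, Benjamini-Hochberg). These classes did not overlap each other or the next. The pigmented epithelium had 12.9 and 8.61 CPM, but its 12 UMIs of library 1 lay in 2 cells and its 12 of library 2 in 4 cells, all 4 in a sub-cluster rich in the smooth muscle gene Myh11. Without that sub-cluster the call for the pigmented epithelium was lost (adjusted p = 0.059). The call in the T or NK class rested on 6 UMIs in 1 cell of library 2 and turned its sign without that library (-3.74).

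Dkk2 and Dkk3 belong to the Dickkopf family. Dkk2 (chr3:132085292-132180304, plus strand) binds Lrp5 and Lrp6 and is known in mice for keeping the ocular surface epithelium corneal. It was at 266 and 261 CPM in fibroblasts (2119 and 1089 UMIs; adjusted p = 3.26e-17), which held 92.9% and 88.2% of its UMIs. A UMI was seen in 63.9% (61.2 to 66.5) and 59.4% (55.4 to 63.2) of fibroblasts, or 23.3% and 21.0% at 1000 UMIs, against 1.5% and 1.72% of macrophages. Mural cells, the pericytes and smooth muscle of vessel walls, had 148 and 113 CPM from 42 and 15 UMIs (adjusted p = 1.30e-07, edgeR, Benjamini-Hochberg). The fibroblast call held under every alternative, but the highest class depended on how a Tagln-led cluster was placed. With a 15% mitochondrial limit or at cluster resolution 2, Dkk2 was highest in an unnamed class led by Tagln. At resolution 0.5 it was highest in mural cells. The non-pigmented epithelium had 9 and 4 UMIs and the pigmented epithelium 8 and 3.

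Endothelium had Dkk2 at 48.4 and 67.2 CPM (57 and 34 UMIs), and 51 and 31 of these UMIs lay in 1 sub-cluster of 30 and 12 cells with a median of 13654 UMIs. In that sub-cluster the 12 fibroblast markers summed to 4193 and 4938 CPM, against 536 to 2797 in the other endothelial sub-clusters of library 1 and 430 to 853 in those of library 2. The 8 pericyte markers summed to 3293 and 1872 CPM in it, against 0 to 96.6 in the others of library 1 and 20.1 to 1898 in those of library 2. Without it, endothelial Dkk2 stood at 9.42 and 9.09 CPM and was no longer called (log2 fold change 0.43, adjusted p = 0.978, edgeR, Benjamini-Hochberg). The part of these markers in the result was not tested otherwise. The Wls call in endothelium was also lost without this sub-cluster (log2 fold change 0.76, adjusted p = 0.123, edgeR, Benjamini-Hochberg).

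Dkk3 (chr7:112116017-112159057, minus strand) is the divergent member of the family, not known as a classical blocker of Lrp6. The non-pigmented epithelium held 2148 and 2062 CPM (1858 and 1929 UMIs), Muller glia 2229 and 986, the pigmented epithelium 1192 and 1306, and melanocytes 1086 and 1218. These 4 classes overlapped in the order, while melanocytes stood clear of the retinal pigment epithelium at 446 and 376, and that class clear of amacrine cells at 331 and 294. A Dkk3 UMI was seen in 91.5% (85.6 to 95.5) and 80.7% (73.3 to 86.8) of non-pigmented cells, or 82.5% and 66.9% at 1000 UMIs. Macrophages reached 4.8% and 16.8%, or 1.22% and 3.59% at 1000 UMIs. Against the mean of the other classes, the log2 fold change was 4.07 ± 0.28 (SE) in the non-pigmented epithelium (adjusted p = 1.09e-13), 3.44 ± 0.30 in Muller glia (adjusted p = 1.29e-10), 3.32 ± 0.30 in melanocytes (adjusted p = 4.49e-11) and 3.25 ± 0.30 in the pigmented epithelium (adjusted p = 1.42e-10), by edgeR with Benjamini-Hochberg adjustment.

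Wls (chr3:159839672-159938664, plus strand) encodes the carrier that takes lipid-modified Wnt proteins to the cell surface of the cells that secrete them. It was at 345 and 301 CPM in the retinal pigment epithelium (489 and 410 UMIs) and 310 and 319 in the pigmented epithelium (288 and 445 UMIs). These classes overlapped each other and stood clear of the rest. Mural cells (145 and 181), the non-pigmented epithelium (155 and 119), fibroblasts (122 and 136) and melanocytes (107 and 133) formed a second group that overlapped within itself. The retina lay far below: Muller glia had 2.13 and 7.01 CPM and cones 4.58 and 3.47. The log2 fold change in Muller glia against the other classes was -2.99 ± 0.45 (SE; adjusted p = 5.62e-06, edgeR, Benjamini-Hochberg). The annotation places Gm43307 on the same strand and Gm23941 on the other strand within the span of Wls.

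Lef1 (chr3:131110471-131224356, plus strand), the factor that joins β-catenin on target genes and is also known from T cell development, was sparse, with 177 and 90 UMIs in all. The T or NK class had 84.0 and 101 CPM (16 and 28 UMIs; adjusted p = 6.22e-11). Mast cell genes also ran high in that class, with Mcpt4 at 3628 and 2133 CPM. Endothelium had 101 and 49.4 (119 and 25 UMIs; adjusted p = 1.58e-12, edgeR, Benjamini-Hochberg), with a UMI in 31.0% (23.6 to 39.2) and 20.6% (13.1 to 30.03) of cells. The non-pigmented epithelium had 20.8 and 16.0 (18 and 15 UMIs in 14 and 13 cells; adjusted p = 3.03e-06). Macrophages, melanocytes, mural cells, cones and neutrophils had 0 UMIs. Schwann cells had 50.5 and 0 CPM, so that call rested on 6 UMIs of library 1, and it turned its sign without that library (-3.46).

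Within the endothelium, Lef1 was uneven between sub-clusters. Sub-cluster 1, led by Cldn5, Ly6c1 and Slco1a4 (21 and 27 cells), genes known from the endothelium of the blood-brain and blood-retina barriers, held 517 and 141 CPM (57 and 14 UMIs), with a Lef1 UMI in 81.0% and 40.7% of its cells. Sub-cluster 2, led by Igfbp3 with the fenestration gene Plvap among its 10 leading genes (64 and 7 cells), had 79.3 and 103. Sub-cluster 3, led by the lymphatic chemokine gene Ccl21a (29 and 18 cells), had 0 in both libraries. Sub-cluster 4, with 1 cell in library 1, had 0 and 29.3, and the deep sub-cluster 5 had 72.1 and 28.4. Pericyte markers summed to 27.2 and 1898 CPM in sub-cluster 1, higher in the library with less Lef1, and their part in the difference was not tested. The target gene Axin2 was 45.4 and 50.5 CPM in sub-cluster 1, from 5 UMIs in each library. The libraries drew on these sub-clusters in different shares, and the part of this in their different endothelial Lef1 levels was not tested.

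Axin2 (chr11:108920349-108950783, plus strand) is transcribed in response to β-catenin and feeds back on the pathway. It was highest in the pigmented epithelium at 66.7 and 39.5 CPM (62 and 55 UMIs), which did not overlap the next class. The retinal pigment epithelium had 35.9 and 21.3, the non-pigmented epithelium 25.4 and 26.7, melanocytes 15.9 and 33.1, and fibroblasts 22.1 and 21.6. From the retinal pigment epithelium down to cones each class overlapped the next. The log2 fold change over the other classes was 2.16 ± 0.29 (SE) in the pigmented epithelium (adjusted p = 4.22e-07) and 1.10 ± 0.36 in the non-pigmented epithelium (adjusted p = 0.0210), by edgeR with Benjamini-Hochberg adjustment. The call in the non-pigmented layer was lost without either library (adjusted p = 0.159), that in the retinal pigment epithelium without library 1 (adjusted p = 0.139) and that in melanocytes without library 2 (adjusted p = 0.355). The melanocyte call was also lost in DESeq2 (adjusted p = 0.0531), and with DESeq2 size factors (log2 fold change 0.94) or at cluster resolution 0.5 (0.90) it was under the fold limit. A UMI was seen in 27.7% (20.4 to 36.0) and 16.2% (11.6 to 21.8) of pigmented epithelial cells, or 6.35% and 3.31% at 1000 UMIs, against 0.901% and 1.72% of macrophages.

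Part of the Axin2 signal of the pigmented epithelium came from the Myh11-rich sub-cluster of 42 and 15 cells. It held 163 and 104 CPM (34 and 7 UMIs), against 38.8 and 36.2 in the remaining pigmented epithelium. Smooth muscle markers summed to 3197 and 12549 CPM in that sub-cluster, against 70.9 to 427 in the other pigmented sub-clusters of library 1 and 39.5 to 368 in those of library 2. Without it, Axin2 was still called in the pigmented epithelium (log2 fold change 1.67, adjusted p = 8.40e-05, edgeR, Benjamini-Hochberg). Sfrp1 did not follow Axin2: the sub-cluster had 529 and 282 CPM, against 587 and 608 in the remainder. Dkk3 was 726 and 875 in it, against 1326 and 1328 in the remainder. These sub-clusters were singled out after their values were seen and were not tested.

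**Figure D2:**
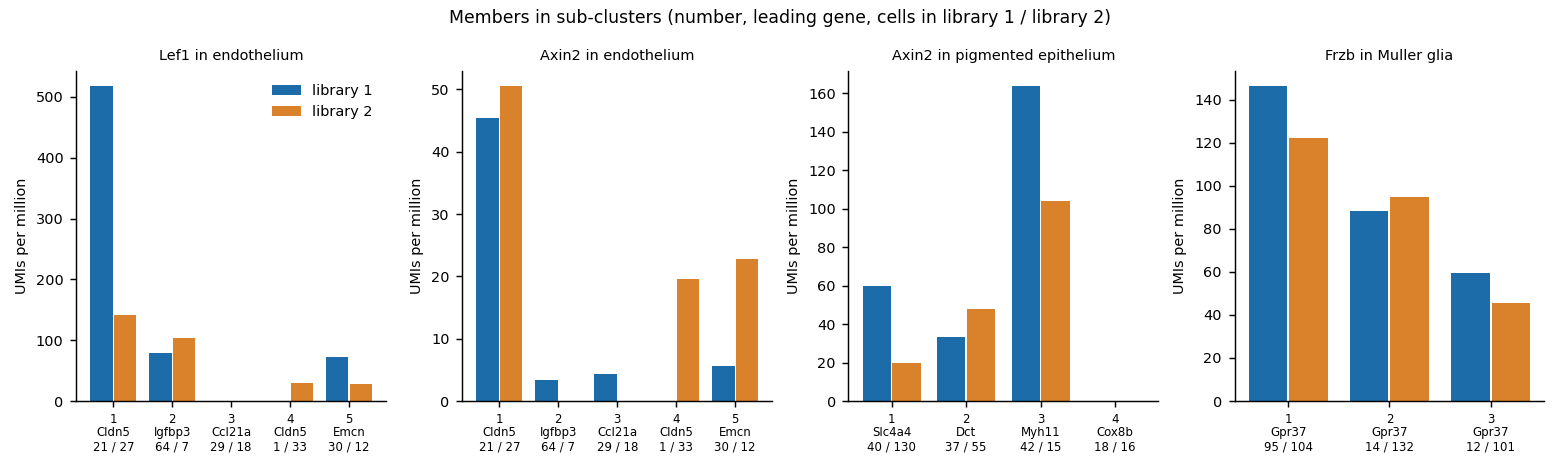
Lef1 and Axin2 in endothelial sub-clusters, Axin2 in pigmented epithelial sub-clusters and Frzb in Muller glia sub-clusters, as CPM with 1 bar per library and, under each pair, the sub-cluster's number, leading gene and cells in library 1 / library 2. Lef1 peaks in the Cldn5-led endothelial sub-cluster 1 (517 and 141), Axin2 of the pigmented epithelium in the Myh11-rich sub-cluster (163 and 104) and Frzb in Muller sub-cluster 1 (146 and 122).

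The fibroblast class held 4 clusters, and the secreted inhibitors were spread unevenly over them. Cluster 4, led by the tendon and sclera gene Tnmd (356 and 146 cells), held Sfrp2 at 1411 and 1172 CPM, with a UMI in 72.5% and 69.9% of its cells. Cluster 5, led by Mmp3 and Ly6a (288 and 59 cells), held 594 and 819. Cluster 13, led by the trabecular meshwork gene Myoc (188 and 174 cells), held 64.5 and 56.1. Cluster 0, led by Tagln (462 and 256 cells), held 39.0 and 27.1. Its leading genes held 2 trabecular meshwork, 2 smooth muscle and 0 fibroblast markers. Sfrp2 thus differed between clusters 4 and 0 by far more than between the libraries.

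Wif1 had the same order at the top, with 81.5 and 115 CPM in cluster 4 and 40.9 and 38.5 in cluster 5, against 3.77 and 15.5 in cluster 0 and 1.08 and 8.77 in cluster 13. Dkk2 was more even: 412 and 311 in cluster 5, 241 and 310 in cluster 0, 222 and 242 in cluster 4, and 168 and 195 in cluster 13. Axin2 was highest in cluster 5 (41.5 and 43.7) and lowest in cluster 13 (1.08 and 3.51). Dkk3 ranged only from 71.7 to 158 over the 4 clusters and both libraries.

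**Figure D3:**
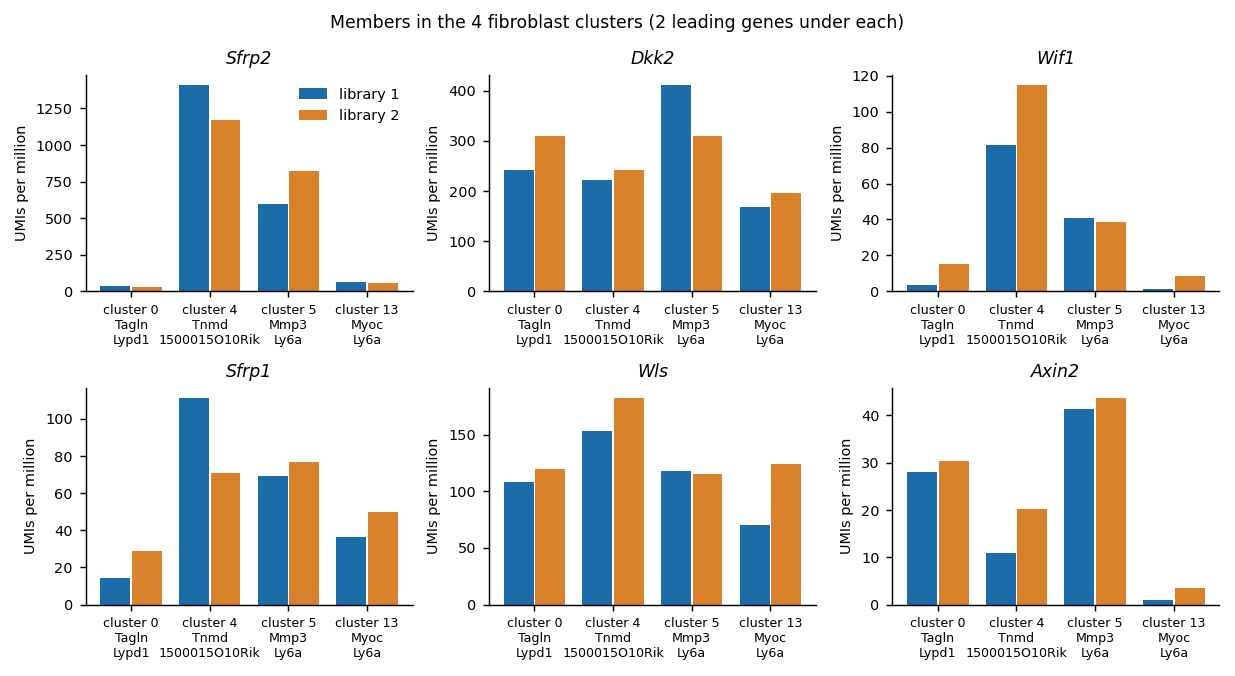
Sfrp2, Dkk2, Wif1, Sfrp1, Wls and Axin2 in the 4 fibroblast clusters, as CPM with 1 bar per library and the 2 leading genes of each cluster underneath; each panel has its own axis from 0. Sfrp2 and Wif1 peak in the Tnmd-led cluster 4, while Dkk2 stays between 168 and 412 in all 4 clusters.

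Some members were also seen in the same cells. Among fibroblasts with a Sfrp2 UMI, 22.1% and 26.7% had a Wif1 UMI, against 10.9% and 11.7% of all fibroblasts. In the same cells Dkk2 was seen in 72.7% and 75%, against 63.9% and 59.4% of all fibroblasts. Within cluster 4, where Sfrp2 and Wif1 both peaked, 28.4% and 31.5% of all cells had Wif1 and 67.7% and 62.3% had Dkk2. In the pigmented epithelium, 73.3% and 77.6% of cells with Sfrp1 had Wls, against 65.0% and 64.4% of all its cells. In the non-pigmented epithelium the shares for Wls were 60% and 52.1% of cells with Sfrp1, against 39.0% and 26.9% of all. These shares are a description, since deeper cells show more of every gene and the classes pool unlike clusters. The part of the clusters in them was not tested.

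In the ciliary body, the non-pigmented and pigmented layers face each other as a bilayer. The pigmented layer here is the pigmented epithelium class, which may also hold iris cells. Of the 10 members, 1 was called higher and 2 lower in the non-pigmented layer, beside 4.7% of the 6794 tested genes higher and 2.61% lower (7.3% either way). Lef1 had 20.8 and 16.0 CPM in the non-pigmented layer, against 1 and 2 UMIs in the pigmented layer. The pooled counts of 33 against 3 UMIs gave a ratio of 14.2 (95% counting interval 4.45 to 72.3), with an adjusted p of 0.00408 in edgeR's quasi-likelihood test with Benjamini-Hochberg adjustment. Sfrp1 had a log2 fold change of -1.96 ± 0.33 (SE; adjusted p = 9.03e-05) and Wls of -1.18 ± 0.35 (adjusted p = 0.0294, same edgeR test). The median over the 10 members was 0.68, against -0.01 over all tested genes.

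The other members did not pass between the layers, and Sfrp2 (15 UMIs in the non-pigmented layer against 4 in the pigmented), Dkk2 (13 against 11), Frzb (1 against 2) and Sfrp5 (1 against 0) were too sparse for a fold. Wif1, at 28.9 and 33.1 CPM in the non-pigmented layer and 12.9 and 8.61 in the pigmented layer, had a log2 fold change of 1.57 ± 0.50 (adjusted p = 0.0533). Dkk3 had 0.78 (adjusted p = 0.503) and Axin2 -1.001 ± 0.41 (adjusted p = 0.170, edgeR, Benjamini-Hochberg). Sfrp1 kept its call without either library, whereas the calls of Wls and Lef1 were lost without either one. Without the Myh11-rich sub-cluster, Wif1 was called (log2 fold change 2.39, adjusted p = 0.0371).

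The fibroblast class, which pools clusters with trabecular meshwork, corneal or scleral stroma and fibroblast markers, was set against the mean of both layers. Fibroblasts were higher in 4 members and lower in 3, beside 14.6% of genes higher and 9.71% lower (24.3% either way). Sfrp2 and Dkk2 carried the largest differences, with log2 fold changes of 7.18 ± 0.76 (SE; adjusted p = 4.31e-09) and 5.58 ± 0.47 (adjusted p = 7.16e-11) in edgeR's test with Benjamini-Hochberg adjustment. Wif1 was higher by 1.29 ± 0.35 (adjusted p = 0.00493). Frzb had 73 UMIs in fibroblasts, against 3 in the summed layers, a ratio of 8.27 (2.72 to 41.0; adjusted p = 0.00406).

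On the other side, Dkk3 was at 92.3 and 129 CPM in fibroblasts, and its log2 fold change against the layers was -3.78 ± 0.56 (SE; adjusted p = 1.92e-06). Sfrp1 had -2.22 ± 0.30 (adjusted p = 4.70e-07) and Lef1, with 10 UMIs in fibroblasts against 36 in the layers, -2.45 ± 0.85 (adjusted p = 0.0279, edgeR, Benjamini-Hochberg). Wls (-0.57, adjusted p = 0.152) and Axin2 (-0.63, adjusted p = 0.144) did not pass, nor did Sfrp5, with 4 UMIs against 1. The median over the members was 0.13, against 0.08 over all genes. The calls of Lef1 and Wif1 were lost without either library and that of Frzb without library 2. With the 15% mitochondrial limit Frzb and Lef1 were lost, in DESeq2 Wif1, and Lef1 also without the replicate block, with another random split of the genes and without the Myh11-rich sub-cluster.

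In the retina, Muller glia were set against the mean of rods, cones, bipolar and amacrine cells. They were higher in 4 members and lower in 0, beside 11.2% of genes higher and 0.471% lower (11.7% either way), and the median was 0.64 over the members (0.78 with Sfrp5 at its bound), against -0.04 over all genes. At an unadjusted p under 0.05, 1577 of the 6794 genes differed. Dkk3 had a log2 fold change of 4.14 ± 0.38 (SE; adjusted p = 4.09e-10) and Frzb of 3.82 ± 0.41 (adjusted p = 1.30e-08, edgeR, Benjamini-Hochberg). Lef1 had 3.16 ± 0.86 (adjusted p = 0.0108), from 11 UMIs in Muller glia and 8 in the neurons. Sfrp1, at 12.8 and 19.5 CPM in Muller glia, had 1.19 ± 0.37 (adjusted p = 0.0244, edgeR, Benjamini-Hochberg). This call was lost under 6 of 13 alternatives. These were without either library, without the replicate block, without the highest doublet scores, with another random split of the genes, and without the Muller sub-cluster described below. The Lef1 call was lost without library 1. Axin2 (0.09, adjusted p = 0.974), Wls (-0.31, adjusted p = 0.797) and Sfrp2 (-0.88, adjusted p = 0.716) did not pass in the same edgeR test with Benjamini-Hochberg adjustment, nor did Wif1 (4 UMIs in Muller glia against 10 in the neurons), Dkk2 (6 against 44) and Sfrp5 (0 against 12).

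The Muller class of library 2 was not of 1 kind. Sub-cluster 3, with 12 and 101 cells and a median of 13027 UMIs, carried rod bipolar markers at a sum of 2051 and 2753 CPM, against 255 and 361 in sub-cluster 1 and 206 and 820 in sub-cluster 2 (14 and 132 cells). Frzb was 59.6 and 45.6 CPM in sub-cluster 3, against 140 and 113 in the remaining Muller glia. Dkk3 was 1180 and 721 in it, against 2813 and 1959 in the remainder. Sfrp1 had 1 and 41 UMIs in it (5.96 and 20.3 CPM), against 5 and 9 (16.6 and 16.4 CPM) in the remainder. The part of these markers in the lower Dkk3 of library 2 was not tested.

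The retinal pigment epithelium and the pigmented epithelium class are both pigmented neuroepithelia, and iris cells were not separated in the latter. Of the members, 1 was higher and 1 lower in the retinal pigment epithelium, beside 6.01% of genes higher and 5.67% lower (11.7% either way). Sfrp5 had 56 UMIs in the retinal pigment epithelium, against 0 in the pigmented layer, and was at least 15.6-fold higher relative to a floor of 3 counts over both libraries (adjusted p = 0.000869, edgeR, Benjamini-Hochberg). Wif1 had 3 UMIs, against 24, a ratio of 0.104 (0.0201 to 0.344; adjusted p = 0.0147). Sfrp1 (-0.84, adjusted p = 0.0802), Dkk3 (-1.30, adjusted p = 0.125), Wls (0.32, adjusted p = 0.660) and Axin2 (-0.59, adjusted p = 0.415) did not pass in the same edgeR test, nor did Sfrp2 (15 UMIs against 4), Dkk2 (12 against 11), Frzb (6 against 2) and Lef1 (2 against 3). The Sfrp5 call was lost without library 1, the Wif1 call without either library and without the Myh11-rich sub-cluster.

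Other genes of the pathway were counted from lists of inhibitors, agonists, ligands, receptors, intracellular components and feedback genes. Between the ciliary layers, the non-pigmented layer was higher in 2 of 5 other secreted inhibitors (median 1.32) and 6 of 19 receptors (median 0.65; 1 lower), against a median of -0.01 over all genes. It was higher in 2 of 6 feedback genes (median 0.36), 1 of 8 ligands (median 0.08), 0 of 5 agonists (median -0.38) and 0 of 19 intracellular components (median -0.25). Over all tested genes, 4.7% were called higher and 2.61% lower. Igfbp4, an IGF-binding protein that also blocks Wnt receptors, was at 479 and 418 CPM in the non-pigmented layer, against 151 and 72.5 in the pigmented layer (log2 fold change 2.05 ± 0.44 SE, adjusted p = 0.00194, edgeR, Benjamini-Hochberg).

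Among receptors of the bilayer, Fzd5 was at 70.5 and 82.3 CPM in the non-pigmented layer, against 7.54 and 15.1 in the pigmented layer (log2 fold change 2.76 ± 0.52 SE, adjusted p = 0.000482). Fzd1 was at 132 and 103, against 25.8 and 23.0 (2.26 ± 0.36, adjusted p = 5.63e-05, edgeR, Benjamini-Hochberg). The feedback inhibitor Nkd2, which binds Dishevelled, was at 94.8 and 68.4, against 5.38 and 5.74 (3.82 ± 0.50, adjusted p = 3.29e-06). The cell cycle gene Ccnd1, a known Wnt target, was at 150 and 145, against 3.23 and 15.1 (3.85 ± 0.52, adjusted p = 3.75e-06). Notum, an enzyme that removes the lipid from Wnt proteins, was picked out after its values were seen: it was at 57.8 and 38.5 in the non-pigmented layer and at 0 UMIs in the pigmented layer, at least 37.0-fold higher (adjusted p = 8.08e-06).

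Fibroblasts were higher than the layers in 4 of 5 other inhibitors (median 2.89), 4 of 5 agonists (4.76 fitted, 4.75 with Ndp at its bound) and 6 of 8 ligands (3.19; 1 lower), against a median of 0.08 over all genes. They were higher in 5 and lower in 4 of 19 receptors (median 0.20), 1 and 1 of 19 intracellular components (-0.01), and 2 and 1 of 6 feedback genes (0.44). The shares over all tested genes were 14.6% higher and 9.71% lower. Wnt6 was at 64.8 and 59.5 CPM in fibroblasts, against 2.79 and 0.859 in the summed layers (log2 fold change 5.65 ± 0.51 SE, adjusted p = 3.62e-10). Rspo3, a secreted enhancer of Wnt signalling, was at 63.3 and 42.2, against 5.02 and 0 (adjusted p = 3.71e-08, edgeR, Benjamini-Hochberg). The inhibitor Sfrp4 was at 18.6 and 12.5, against 0 UMIs in the layers, at least 22.7-fold higher (adjusted p = 2.38e-06).

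The ligand Wnt16 ran the other way, at 1.76 and 1.20 CPM in fibroblasts, against 29.0 and 30.5 in the summed layers (log2 fold change -3.89 ± 0.56 SE, adjusted p = 2.34e-06, edgeR, Benjamini-Hochberg). Its highest class was the pigmented epithelium, at 38.8 and 38.7. The R-spondin receptor Lgr4 was also lower in fibroblasts (-2.63 ± 0.30), and the receptor cofactor Reck was higher (3.54 ± 0.32).

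Muller glia were higher than retinal neurons in 2 of 5 other inhibitors (median 1.85), 9 of 19 receptors (1.28), 3 of 6 feedback genes (1.62), 3 of 19 intracellular components (0.09), 1 of 8 ligands (0.59) and 1 of 5 agonists (-0.05 fitted, 1.26 with the gene at 0 at its bound), with 0 lower in each list. Of all tested genes, 11.2% were higher and 0.471% lower, with a median of -0.04. Fzd5 was at 389 and 177 CPM in Muller glia, against 8.77 and 22.4 in the summed neurons (log2 fold change 3.98 ± 0.31 SE, adjusted p = 3.16e-11, edgeR, Benjamini-Hochberg). Tcf7l2, a TCF/LEF factor, had 3.32 ± 0.34.

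The retinal pigment epithelium was higher than the pigmented layer in 1 of 5 other inhibitors (median 0.01), 1 of 19 receptors (-0.21; 2 lower) and 1 of 6 feedback genes (-0.54; 1 lower), and lower in 2 of 8 ligands (-1.91) and 1 of 19 intracellular components (-0.10), against a median of -0.02 over all genes. Of 5 agonists, 0 were called (-0.07). Beside these lists, 6.01% of all tested genes were higher and 5.67% lower. Sostdc1, a secreted inhibitor of Wnt and BMP signalling, was at 360 and 152 CPM in the retinal pigment epithelium, against 24.8 and 33.7 in the pigmented layer (log2 fold change 3.24 ± 0.43 SE, adjusted p = 1.96e-06, edgeR, Benjamini-Hochberg).

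The levels of members were also compared with those of 5645 other tested genes across the 18 classes, as a description in which all points share the same 2 libraries and their depth. Dkk2 was most like Twist1, C1qtnf1 and Cd248 (Pearson's r 0.91 for each, log2 scale), Sfrp2 most like Tmem45a (0.88), and Wif1 most like Fbln1 (0.87). Frzb was most like Agt (0.84), Dkk3 like Pdk2 (0.89), Wls like Laptm4a (0.88), Sfrp1 like Lrrc58 (0.87), Axin2 like Slc25a51 (0.84) and Lef1 like Gimap5 (0.77). Among the members themselves, Sfrp1 ran most closely with Wls (0.75) and Axin2 (0.68), and Sfrp2 with Dkk2 (0.58). Between the libraries, a member's r over the 18 classes, here of CPM without a log, was between 0.59 (Axin2) and 0.99 (Sfrp1). The rank correlation (Spearman) of the same values was lower at its ends, from 0.087 (Sfrp2) to 0.76 (Wls). The order of the classes was thus far less alike between the libraries for some members.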

How the data were processed

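The authors deposited for each library raw UMI counts, 1 per gene and barcode, not normalised, with a minimum of 500 UMIs per barcode in the files. Per the submitters' processing notes, the tools were CASAVA 1.8, Cell Ranger and Seurat and the builds mm10 and GRCm38, and the matrix header gives software version 3.1.0. The annotation release and strand setting are not given in the sources used here. A second deposited matrix per library held the same counts (0 entries differed). Library 1 held 22510387 UMIs in 4764 barcodes and library 2 30683405 in 6220.

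Retained cells had 500 or more genes and no more than 30% of UMIs from mitochondrial genes. Scrublet marked 3 and 0 cells, which means it has not worked, so doublets remained. Cells were clustered (scanpy 1.11.5, 2000 variable genes, 30 components, 15 neighbours, resolution 1, seed 1) on 16824 genes that held all markers and no Wnt gene of the lists. The 27 clusters were named from 235 markers of 34 types: a marker counted at 4 times the median of the other clusters and 3 were needed. The naming rule was written after the clusters were seen. Retinal ganglion and red blood cells had too few cells for the fit. Shares were also computed on cells thinned to 1000 UMIs, which left out 333 cells of library 1 (182 of them rods) and 788 of library 2 (465 rods).

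Counts were summed per class and library (36 sums) and fitted with edgeR 4.0.16 (R 4.3.3; TMM, filterByExpr, quasi-likelihood F test) with class and library as terms and 17 residual degrees of freedom. The library is the replicate block because the classes of a library come from the same pool of eyes. The spread is shared over all classes, which come from the same 2 pools. With library as a term, p-values measure only how unevenly the classes differed between these 2 pools. P-values were adjusted by Benjamini-Hochberg over the 6794 genes outside the clustering set that passed the filter, all 10 members among them, with calls at an adjusted p under 0.05 where the log2 fold change was 1 or more in size. Where a side had 1 to 3 UMIs the ratio of pooled counts is given with an exact 95% interval, and where it had 0 a bound against 3 counts. In counts simulated for the 2 ciliary layers (6794 genes, with changes placed in genes with a mean of 10 or more), 92% of 100 genes changed 4-fold and 17% of 100 changed 2-fold were recovered, with 1 of 110 calls false. Similar genes were ranked by Pearson's r of log2 CPM (prior count 2) among genes with at least 200 UMIs, and members needed 50 UMIs in each library, which left out Sfrp5. From the other Wnt lists, up to 4 called genes per list and direction could be named if the higher class had 50 UMIs or more in both libraries. Adgra2 was not analysed here. Positions came from GENCODE M21. The members, lists and comparisons were chosen with earlier results of these data known. Alternatives covered DESeq2 1.42.0, no filter, no block, other cell filters, cluster resolutions and another random split of the genes. Each library was also left out, but only for the compared classes, while the other classes kept both sums. A further 3 alternatives left out sub-clusters, which were chosen after seeing the data.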

Additional observations from a re-analysis of the deposited data

How the results depend on the processing

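Sfrp1 between the ciliary layers, Sfrp1, Sfrp2, Dkk2 and Dkk3 in fibroblasts against the layers, and Dkk3 and Frzb in Muller glia against neurons kept their calls under every alternative run. Over the single members, 1069 values kept their direction and side of the threshold, 79 were weaker, 4 were stronger and 9 turned their sign. The number of members higher in the non-pigmented layer was 2 without a low-count filter, without the 5% of cells with the highest doublet scores, or without the Myh11-rich sub-cluster, in each case with Wif1 added (adjusted p = 0.0403, 0.00492 and 0.0371). The number lower there was 1 without the replicate block and at resolution 2. Between the retinal pigment epithelium and the pigmented layer, 2 members were lower without a low-count filter (Dkk3 added, adjusted p = 0.000558), 0 were lower without the Myh11-rich sub-cluster, and 0 were higher with DESeq2 (Sfrp5, adjusted p = 0.70). Over the class contrasts, the pairs called lower fell to 8 with a 15% mitochondrial limit and to 9 without the highest doublet scores, against 17; in both settings Sfrp1 had 0 UMIs in 1 class, and with the 15% limit so had Axin2.

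Without 1 library each class is left with 1 sum, assumed to vary like the other classes, and the counts of members, higher and lower, were 0 to 0 and 1 to 1 for the layers, 2 to 3 and 2 to 2 for fibroblasts, 2 to 3 and 0 for Muller glia, and 0 to 1 and 0 to 0 for the retinal pigment epithelium, with 35 to 35 and 10 to 12 pairs over the class contrasts. Fitted without the replicate block, the 4 comparisons gave 1 and 1, 4 and 2, 3 and 0, and 1 and 1 members higher and lower, and the class contrasts 37 and 15 pairs, so leaving out the block ended the calls of Wls between the layers, of Lef1 in fibroblasts and of Sfrp1 in Muller glia. Signs turned for Sfrp2 in Muller glia without replicate 1 (0.50, and -1.94 without replicate 2), for Axin2 in Muller glia with a 15% mitochondrial limit (-0.039) and at resolutions 0.5 (-0.054) and 2 (-0.076), for Lef1 in Schwann cells without replicate 1 (-3.46, and 4.91 without replicate 2), and for Wif1 in the T or NK class without replicate 2 (-3.74, and 4.45 without replicate 1), with a 15% mitochondrial limit and at resolution 0.5 (-3.86 each), and without the highest doublet scores (-3.16). Genes called between the layers numbered 147 and 169 without library 1 and library 2, against 496 with both.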

Other observations

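Retinal ganglion-like cells (15 in library 1 and 49 in library 2) were too few for the fit. They held 27 and 226 Dkk3 UMIs, or 101 and 167 CPM, with a UMI in 40% and 69.4% of cells. They held 0 and 9 Sfrp1 UMIs, 0 and 9 Frzb UMIs (in 4 cells) and 1 and 15 Axin2 UMIs. The red blood-like cells (3 and 9) held 0 and 3 Dkk3 UMIs.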
